A study of Caenorhabditis elegans with 2 samples.

Results

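The arms of chromosome II of Caenorhabditis elegans are represented by 338 of the 4818 intervals in a deposited list of sequenced 3′ untranslated region (3′ UTR) products. An interval was counted in the left arm when its start lay below 5 Mb and in the right arm when it lay at 12 Mb or above, in the file's own numbering. This gave 206 intervals in the left arm and 132 in the right arm, together 7.02% of the list, and 485 intervals lay in the centre between them. The rule used position alone. The last interval of the left arm started at 4995890 and the next one, in the centre, at 5001230. The last interval of the centre started at 11997787 and the first of the right arm at 12001415.

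N2 wild-type worms of mixed stages, grown on OP50 bacteria, supplied the RNA. RACE (rapid amplification of cDNA ends) products, made with an oligo-dT primer and a forward primer for each transcript, were cloned as 6432 minipools, which are mixed bacterial transformants, and read by 454 pyrosequencing. A further run with 49152 barcoded products and 5952 minipools is described in the labels, and both runs carry the same genotype, stages and food. The further run has no interval list of its own, and whether its reads entered the list used here is not stated. The list has no replicate, so no difference between the arms and the centre was tested and replicate error is unknown, as is read depth. Ranges in brackets are 95% intervals, exact binomial ones for shares and order-statistic ones for medians, and cover counting error only.

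The 3′ UTR runs from the stop codon to the poly(A) tail. It holds the poly(A) signal, at which the cleavage and polyadenylation machinery ends the messenger RNA, and most of the sites read by microRNAs and RNA-binding proteins. The arms of worm autosomes recombine more often than the centres, are richer in repeats and hold many young, expanded gene families. On chromosome II these include F-box genes, which encode substrate receptors of ubiquitin ligases, and MATH and BTB domain genes (bath, math and btb), whose relatives act as adaptors of cullin ubiquitin ligases.

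Genes could be named only after the numbering of the file had been matched to the annotation, assembly WBcel235. In each 1 Mb window the offset was taken from the distance between interval edges and stop codons on both strands. In the left arm it lay between −5 and 12 nt, with 0, −5, 1, 9 and 12 nt in the successive windows. On the right it was 88 nt from 12 to 13 Mb, 96 nt from 13 to 14 Mb and 100 nt from 14 to 15 Mb. The last window held 5 intervals, too few for its own estimate, and took the 100 nt of its neighbour. Offsets fitted in windows of 0.5 Mb differed from these by at most 5 nt in the left arm and 6 nt in the right arm. Distances to annotated ends therefore carry an uncertainty of several nt. Coordinates below keep the file's own numbering, counted from 1, and the sources used here do not give its build.

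**Figure D1:**
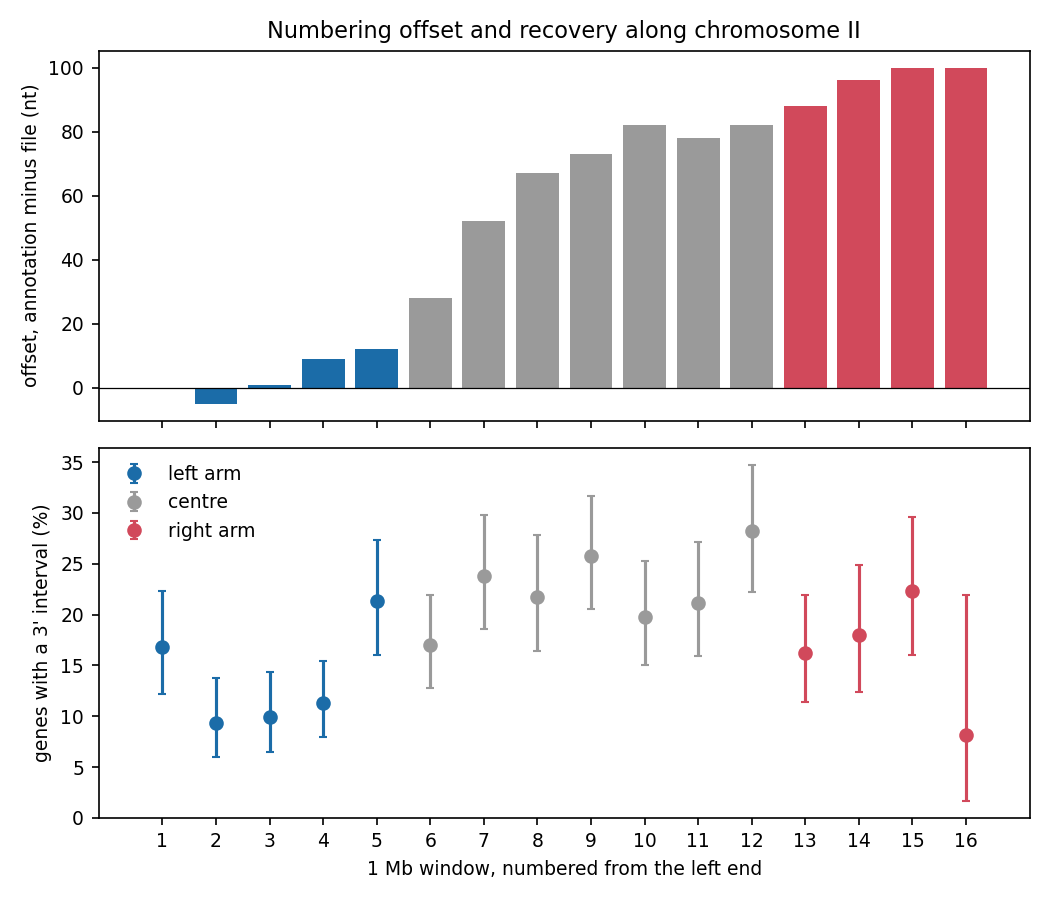
Upper plot, offset between the annotation and the file in nt for each 1 Mb window of chromosome II, and lower plot, share of annotated protein-coding genes with a 3′ interval in the same windows, with exact 95% intervals. The offset is 12 nt or less in the left arm (blue) and 88 to 100 nt in the right arm (red), and the share is lowest, 8.11% to 11.3%, in windows 2 to 4 and 16.

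The arms gave fewer products per gene than the centre. The left arm held 16.7 intervals per 100 annotated protein-coding genes (206 intervals, 1231 genes), the right arm 23.6 (132 intervals, 559 genes) and the centre 29.2 (485 intervals, 1659 genes). The left arm is as dense in genes as the centre, with 246.2 against 237 genes per Mb, whereas the right arm has 172 per Mb. Per Mb, both arms held similar numbers of intervals, 41.2 in the left and 40.7 in the right, against 69.3 in the centre. Genes with an interval at their own 3′ end made up 13.4% of left arm genes (11.5 to 15.4), 17.9% of right arm genes (14.8 to 21.3) and 22.3% of genes in the centre (20.3 to 24.4). The set of genes targeted by a primer is unknown, so the choice of targets and their recovery cannot be told apart in these shares.

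Within the left arm the low values lay in its middle. From 1 to 4 Mb, 81 of 789 genes had a 3′ interval (10.3%, 8.24 to 12.6), against 84 of 442 (19.0%, 15.5 to 23.0) in the first and the fifth Mb together. This split was not planned and sets the windows with the lowest shares of the arm, 9.32% to 11.3%, against the rest. The separation of the brackets is therefore no test. The same middle stretch held 144 of the left arm's 172 F-box, MATH and BTB genes and 65 of its 79 genes with a chemoreceptor symbol. Shares in the right arm were 16.2%, 18.0% and 22.3% in the successive full windows, and their brackets overlap.

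The annotation itself differs along the chromosome, and the share of genes with an interval differed between classes of annotated 3′ UTR. Models without any 3′ UTR made up 20.8% of left arm genes (18.6 to 23.2), 15.03% of right arm genes (12.2 to 18.3) and 8.14% in the centre (6.87 to 9.56). In the left arm, 10 of 256 such genes had an interval (3.91%), against 37 of 504 genes whose longest annotated 3′ UTR had 1 to 99 nt (7.34%). The share was 22.3% from 100 to under 200 nt, 25.2% from 200 to under 400 nt and 33.3% at 400 nt or more. Right arm genes gave 2.38%, 11.9%, 27.1%, 27.3% and 30.6% in the same 5 classes. Genes of the centre gave 4.44%, 10.3%, 30.5%, 33.03% and 31.25%, so the left arm lay below the centre in 4 of the 5 classes and above it in the longest. The brackets of left arm and centre overlap in each class, as at 100 to under 200 nt (17.2 to 28.1 and 26.4 to 34.9). The naming rules bear on these shares. A gene without an annotated 3′ UTR could be named only by an interval that began close to its stop codon. A gene with a longer 3′ UTR could also be named by overlap with it. How much of the rise over the classes follows from the naming was not tested. The shortest interval of the whole file measured 96 nt. The sources used here do not say whether the annotation drew on these clones, so it is not known to be independent of them.

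The median interval length was lower in both arms than in the centre. It was 162 nt in the left arm (152 to 179), 170.5 nt in the right arm (153 to 193) and 192 nt in the centre (184 to 205), and only the right arm's bracket overlapped that of the centre. Interquartile ranges were 126 to 247.75 nt, 132.5 to 224 nt and 144 to 275 nt. Over both arms lengths ran from 98 nt, at F08D12.7, to 566 nt, at Y8A9A.4. Intervals of at most 120 nt made up 19.4% of the left arm (14.2 to 25.5), 18.9% of the right arm (12.6 to 26.7) and 12.6% of the centre (9.76 to 15.9). Those of at least 400 nt numbered 9 in each arm, 4.37% of the left and 6.82% of the right, against 6.80% in the centre. Without intervals of F-box, MATH and BTB genes the left arm median was 173.5 nt (157 to 186), and its bracket then overlapped that of the centre.

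**Figure D2:**
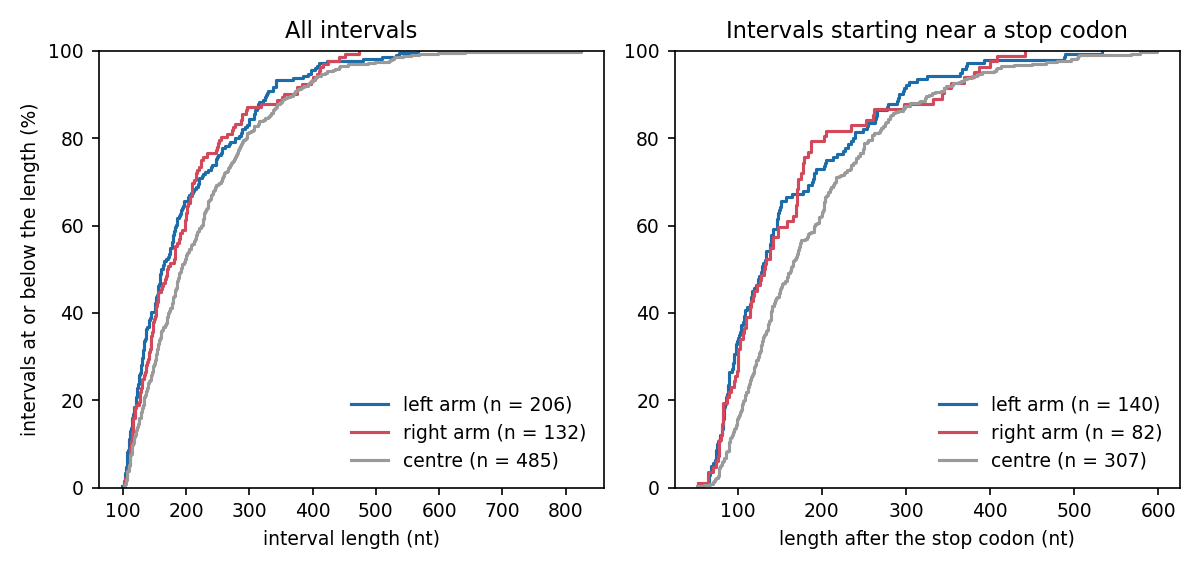
Cumulative share of intervals (%) by interval length in nt, left, and by length after the stop codon in nt for intervals that start near a stop codon, right, for the left arm, the right arm and the centre. Both arm curves run above that of the centre over most lengths, with medians of 162 and 170.5 nt against 192 nt for all intervals.

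After correction most intervals lay at the 3′ ends of protein-coding genes. In the left arm 166 of 206 (80.6%, 74.5 to 85.8) were given to 1 gene, and in the right arm 102 of 132 (77.3%, 69.2 to 84.1), against 77.3% in the centre. They named 165 genes in the left arm and 100 in the right. Plus-strand and minus-strand genes were equally frequent, 83 of 166 and 51 of 102 being on the plus strand. In 140 of the 166 and 82 of the 102 the interval began no more than 60 nt upstream of the last base of the stop codon, here called a start near the stop codon. The distance had a median of 33 nt in the left arm and 32.5 nt in the right. The fit of the offsets sought distances of 20 to 45 nt, so these medians are not independent of it.

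Counted along the genome from the stop codon on, intervals with a start near it had a median of 129 nt in the left arm (111 to 142, 140 genes). The median was 131.5 nt in the right arm (110 to 166, 82 genes) and 163 nt in the centre (149 to 174, 307 genes). Genes with 100 nt or less made up 34.3% of the left arm (26.5 to 42.8), 31.7% of the right arm (21.9 to 42.9) and 16.3% of the centre (12.3 to 20.9). Genes with 300 nt or more made up 8.57%, 12.2% and 12.7%. By window of the left arm the medians were 143.5, 99.5, 97.5, 117.5 and 147 nt, so the short ones lay between 1 and 4 Mb. Without the F-box, MATH and BTB genes the left arm median was 138.5 nt (119 to 151), with a bracket that overlapped that of the centre.

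The longest stretches after the stop codon were ranked among intervals with a start near it, and on the left they belonged to genes of unlike roles. Intervals of cct-3 and sea-2 that began past the stop codon ended farther from it and were not ranked. Unranked intervals of gldi-6, vig-1, F48A11.4 and mnat-1 also began past it and ended farther from it than some of the genes listed here. In Y8A9A.4 533 nt followed the stop codon (II, 3791354 to 3791919), 164 nt past the annotated end. ipla-1, an intracellular phospholipase A gene, had 489 nt (II, 4590960 to 4591469). alg-2, one of the Argonaute genes that carry microRNAs, had 488 nt (II, 878428 to 878964), 6 nt past the annotated end. The F-box gene fbxa-184 had 393 nt, although its model ends at the stop codon, and T01D1.5 had 372 nt, 2 nt short of the annotated end.

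By the same ranking pqn-87 had the longest of the right arm, 441 nt after the stop codon (II, 12209159 to 12209632). Unranked intervals of smg-9, pfs-2, ZK131.11 and F18A11.5 that began past the stop codon ended farther from it. mcm-2, a subunit of the replicative helicase, followed with 408 nt (II, 12001415 to 12001855), in an interval that also reached the 3′ end of Y17G7B.23 on the other strand. Annotated exons of mcm-2 covered 402 nt of this stretch, but the longest 3′ UTR annotated at the nearest end has 164 nt. The 408 nt are thus a genomic distance that may hold coding or intron sequence of some models. gsy-1, the glycogen synthase gene, had 400 nt (II, 12866360 to 12866783) and ended 2 nt before the annotated end. Y54E2A.4 had 387 nt and K04B12.2 had 381 nt. wago-4, an Argonaute gene of the germline, had 345 nt and ended 100 nt before the annotated end. The listed Argonaute genes of the arms, 1 in each, thus both had an interval and more than 300 nt after the stop codon. Over all genes, 13.4% of the left arm and 17.9% of the right had an interval. Of genes with a start near the stop codon, 8.57% and 12.2% had 300 nt or more. The centre gave 0 of 1 listed Argonaute genes, and these counts are too small to be set apart from the shares of all genes.

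The shortest were close to the lower limit of the file. In the left arm they were math-18 with 59 nt after the stop codon, Y51H7C.12 with 65 nt, skpo-2, a peroxidase gene, and F19B10.13 with 66 nt each, and C40A11.6 with 67 nt. Those of the right arm were F42G4.2 with 53 nt, cysl-2, a cysteine synthase family gene, with 64 nt, C04H5.7 with 65 nt, F57G9.3 with 70 nt and gst-28, a glutathione S-transferase gene, with 74 nt. The right arm values of F42G4.2, F57G9.3 and gst-28 lay within 4 nt of annotated ends. The left arm values of math-18, skpo-2 and C40A11.6 ended 110, 227 and 103 nt before theirs.

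F-box and MATH or BTB genes made up the main family share of the left arm. Of 102 F-box genes there, 10 had a 3′ interval (9.80%, 4.80 to 17.3), and of 70 MATH and BTB genes 11 had one (15.7%, 8.11 to 26.4), against 13.4% of all left arm genes. Their 3′ UTRs were short. The 10 F-box genes had a median of 91.5 nt after the stop codon, from 68 nt in fbxb-38 and fbxb-90 to 393 nt in fbxa-184. In the 10 MATH and BTB genes with a start near the stop codon the median was 89.5 nt, from 59 nt in math-18 to 134 nt in math-4. The remaining 120 left arm genes had 138.5 nt. The successive windows from 1 to 4 Mb held 10, 5 and 5 of the family intervals. Medians after the stop codon in these windows, families included, were 99.5, 97.5 and 117.5 nt, so family and position were not told apart. Members of a family resemble each other in sequence. The sources used here do not say where reads matching several of them were put, so these assignments are uncertain.

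In the left arm, 20 ends of these families follow a start near the stop codon. Of these, 12 lay within 20 nt of an annotated end (60%, 36.1 to 80.9), against 60.7% of all left arm ends of this kind. As examples, chosen after their values were seen, fbxa-24 ended 0 nt from it with 74 nt after the stop codon, fbxb-17 ended 1 nt before it with 147 nt, and bath-1, bath-13 and fbxb-31 ended 2 nt before it. fbxb-14 and fbxb-98, whose models end at the stop codon, had 116 and 95 nt after it. The fbxb-14 interval also reached the 3′ end of W08F4.3 on the other strand, so the source of its edge cannot be told apart. bath-26 and bath-7 each ended 28 nt before the annotated end. bath-28, the longest of the MATH and BTB intervals at 342 nt, began 65 nt before the end of its stop codon and ended 1 nt from the annotated end. On the right, 1 of 4 MATH and BTB genes (btb-20, 82 nt after the stop codon) and 0 of 4 F-box genes were given an interval, and btb-14 lies under one given to no gene.

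The shares of the other large families are set beside those of all genes, 13.4% on the left and 17.9% on the right. Of 79 chemoreceptor genes in the left arm 1 was given an interval (1.27%, 0.0320 to 6.85), namely srz-64 with 117 nt after a stop codon at which its model ends. None of 45 was given one in the right arm, which allows a share of up to 6.67%, reading a count of 0 as at most 3 genes (exact upper limit 7.87%). However, sre-42 shares an interval with btb-14 that could be given to neither, and sre-45 lies under the interval given to snx-14 on the other strand. In the left arm an interval over an intron or other untranslated part of srg-23 was not counted. Models without a 3′ UTR were frequent among the chemoreceptor genes, 52 of 79 and 22 of 45. None of 29 C-type lectin genes, which encode carbohydrate-binding domain proteins often linked to immunity, had an interval in the left arm (up to 10.3% by the same limit, exact upper limit 11.9%). In the right arm clec-4, clec-63 and clec-66 of 10 had one (30%, 6.67 to 65.2), a bracket that holds the 17.9% of all genes, and the difference between the arms was not tested. Of these 3 only clec-4 started near its stop codon, with 82 nt after it. None of 14 histone genes in the right arm had one (up to 21.4%, exact upper limit 23.2%), and all 14 models lacked a 3′ UTR. Canonical histone messages of animals end in a stem-loop and not in a poly(A) tail.

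**Figure D3:**
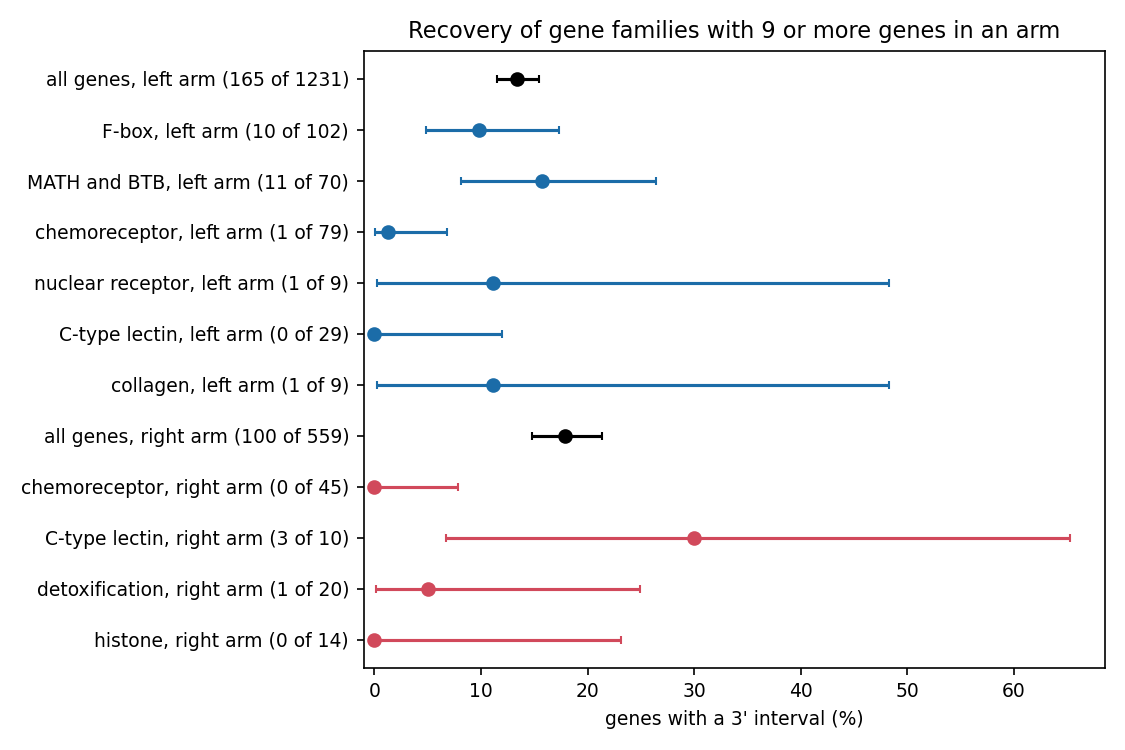
Share of genes with a 3′ interval (%) for each gene family with 9 or more genes in an arm, with exact 95% intervals, the black points giving all protein-coding genes of that arm. F-box, MATH and BTB shares lie near the 13.4% of all left arm genes, and the chemoreceptor shares, 1 of 79 and 0 of 45, lie below the arms' shares.

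Of the smaller families most gave 1 member or none, and their counts are too small to be set apart from the 13.4% and 17.9% of all genes. Both arms had 1 of 2 listed mitochondrial ribosomal protein genes, mrpl-41 on the left with 132 nt after the stop codon and mrpl-37 on the right with 133 nt. rpl-43, the only listed cytosolic ribosomal protein gene of the arms, had 77 nt after a stop codon at which its model ends. The proteasome genes rpt-4 and rpn-5, an ATPase and a lid subunit of the regulatory particle, were 2 of 4 in the left arm. Collagen genes gave col-20 (1 of 9, 81 nt after the stop codon) on the left and col-85 (1 of 3, 100 nt) on the right, and nhr-109 was 1 of 9 left arm nuclear receptor genes. unc-85, a histone chaperone gene, had 157 nt and ended 0 nt from the annotated end. gst-28 was 1 of 20 listed detoxification genes of the right arm, and lin-7, a PDZ domain scaffold gene, 1 of 2 lin or let genes there. No neuropeptide gene of 3 in each arm, and no homeobox gene of 6 on the left and 2 on the right, had an interval. Nor did the 6 detoxification genes, the 3 lin or let genes and the 2 splicing genes of the left arm, though prp-21, a splicing factor gene, had a coding interval. In the right arm the unc, small GTPase and respiratory chain genes, 1 each, had none. None of its 3 nuclear receptor genes was given one, though nhr-61 shares an interval with W01D2.1 that could be given to neither.

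For intervals with a start near the stop codon, the end was compared with the nearest annotated transcript end of the same gene. Within 20 nt lay 85 of 140 left arm ends (60.7%, 52.1 to 68.9) and 52 of 82 right arm ends (63.4%, 52.05 to 73.8), against 66.4% in the centre (60.9 to 71.7). The median difference was 2 nt in the left arm, with quartiles at −3 and 16 nt. It was 0 nt in the right arm, with quartiles at −30.25 and 4 nt. Ends more than 20 nt downstream made up 22.1% of the left arm (15.6 to 29.9) and 9.76% of the right (4.31 to 18.3), and ends more than 20 nt upstream made up 17.1% (11.3 to 24.4) and 26.8% (17.6 to 37.8). These brackets overlap, and the difference between the arms was not tested.

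**Figure D4:**
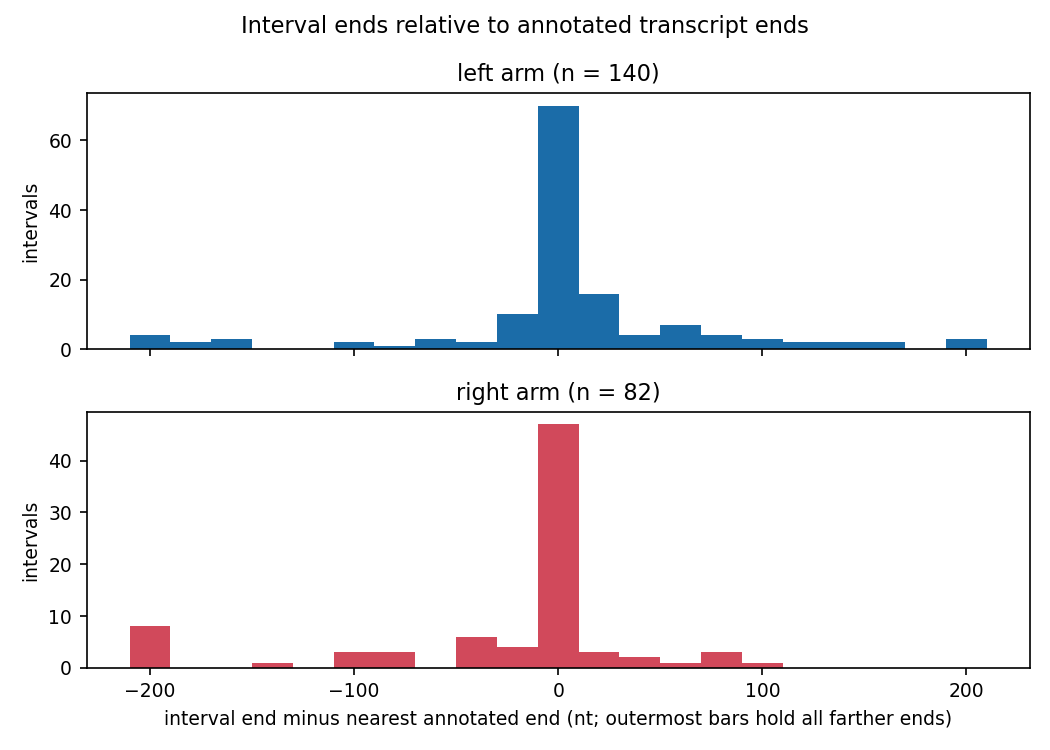
Number of intervals by the distance of their end from the nearest annotated transcript end of the gene (nt, positive means downstream). Only intervals with a start near the stop codon are shown, for the left arm and the right arm, with bars 20 nt wide. The tallest bar holds the ends near 0 in both arms, and the outermost left bar of the right arm holds 8 ends more than 190 nt upstream.

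Of the 31 downstream ends in the left arm, 14 had as nearest model one without any 3′ UTR, as had 2 of 8 in the right arm. A left arm interval of sea-2 that began past the stop codon ended 682 nt past the nearest annotated end and was not ranked. Among intervals with a start near the stop codon, the farthest on the left were fbxa-184 (393 nt), F26G1.10 (266 nt), T25D3.4 (191 nt), Y8A9A.4 (164 nt) and F34D6.1 (161 nt). The nearest models of the leading 3 of these ended at the stop codon, but in T25D3.4 all 191 nt lay in exons annotated for the gene, whereas in fbxa-184 and F26G1.10 0 nt did. By the same ranking the farthest on the right were F08G2.4 (103 nt), dsb-2, a gene of meiotic DNA break formation (88 nt), F45H10.2 (81 nt), rpl-43 (77 nt) and lips-15 (64 nt). The dsb-2 interval also reached the 3′ end of exl-1 on the other strand, and since the file gives no strand the source of its edge cannot be told apart.

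In the right arm 8 of 82 ends (9.76%, 4.31 to 18.3) lay over 300 nt before the annotated end, against 3 of 140 in the left arm (2.14%, 0.444 to 6.13) and 3.58% in the centre (1.80 to 6.32), with overlapping brackets. An interval of pfs-2 that began past the stop codon ended farther before its annotated end than any of these and was not ranked. Among those ranked, tric-1B.1 ended 777 nt before the annotated end, with 78 nt after the stop codon. C04H5.1 ended 677 nt before it. In lem-2, a gene of the inner nuclear membrane, the interval ended 142 nt after the stop codon (II, 14065726 to 14065900), 646 nt before the annotated end. cyn-16, a cyclophilin gene, ended 614 nt and cyd-1, the cyclin D gene, 482 nt before theirs. In the left arm the farthest were cct-3, a subunit gene of the cytosolic chaperonin (882 nt), vab-1, the Eph receptor gene (368 nt), F54A3.2 (327 nt), skpo-2 (227 nt) and C27D9.1 (180 nt).

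**Figure D5:**
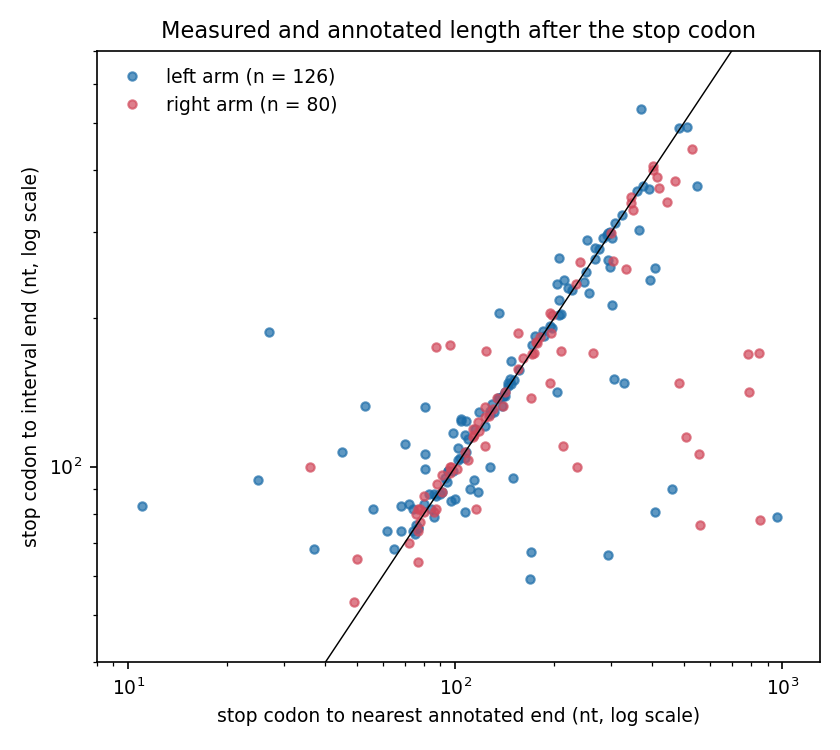
Distance from stop codon to interval end against distance from stop codon to the nearest annotated end, both in nt on log scales, for 126 left arm and 80 right arm intervals that start near a stop codon and whose nearest model has a 3′ UTR. Most points lie on the line of equal distance, and those far to its right are upstream ends such as cct-3, where 79 nt were read and 961 nt are annotated.

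Some genes have several annotated ends more than 20 nt apart, and the interval ends were compared with each of them. Among left arm intervals with a start near the stop codon, 36 belonged to such genes. Of these, 16 ended within 20 nt of the farthest annotated end (44.4%, 27.9 to 61.9), 5 at another annotated end and 15 at none. For the right arm the numbers were 9, 3 and 10 of 22. In the centre they were 25, 7 and 30 of 62.

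The 3′ edge of each interval was counted as an end, and no poly(A) tail was checked. More than 1 such end was seen in 1 of 165 named genes of the left arm (0.606%, 0.0153 to 3.33). In the right arm 2 of 100 had more than 1 (2%, 0.243 to 7.04), against 5 of 370 in the centre. In cct-3 one interval ended 79 nt after the stop codon (II, 2242550 to 2242656) and the other, which began 734 nt after it (II, 2243312 to 2243531), ended 7 nt before the only annotated end. In ZK131.11 the ends lay 402 nt apart (II, 13817027 to 13817171 and 13817393 to 13817573), the latter 5 nt past an annotated end. In smg-9, a gene of nonsense-mediated decay, they lay 938 nt apart (II, 14746789 to 14747239 and 14747727 to 14747845), and the farther one met an annotated end within 1 nt. This farther end lay 1020 nt past the nearest stop codon, against 470 nt of annotated 3′ UTR. The 938 nt are thus a genomic distance that may span an intron or belong to different models. In each of the 3 genes only 1 of the intervals started near the stop codon. Whether the intervals of a gene are pieces of 1 longer product was not tested. The file holds no overlapping intervals, so forms that overlap cannot be counted.

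A further 46 given intervals of the arms did not start near a stop codon. Of these, 27 began 65 to 273 nt before the end of the nearest stop codon and 19 began 15 to 734 nt after it. These were named because they covered annotated 3′ UTR, which bears on how their ends fall. In 34 of 46 (73.9%, 58.9 to 85.7) the end lay within 20 nt of an annotated end, against 137 of 222 (61.7%, 54.97 to 68.1) among those with a start near the stop codon. rpn-5 and usp-14, a deubiquitinase gene of the proteasome, began 136 and 204 nt before the stop codon and ended 1 nt before and 0 nt from the annotated end. pfs-2, which encodes a WD-repeat subunit of the poly(A) machinery, had an interval that began 566 nt after the stop codon and ended 1477 nt before the nearest annotated end. usp-14 and pfs-2 were chosen after their values were seen.

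Intervals over the 3′ ends of genes on both strands were infrequent in the arms, 10 of 206 on the left (4.85%, 2.35 to 8.75) and 10 of 132 on the right (7.58%, 3.69 to 13.5), against 10.7% in the centre (8.11 to 13.8). In each arm 4 of them could be given to neither gene. On the left these lay between rig-6, which encodes a neural contactin, and C33F10.14 (277 nt), F43C11.4 and F43C11.10 (136 nt), taf-6.1 and W09B6.4 (132 nt), and oac-30 and clpr-2 (117 nt). On the right they lay between snf-5 and Y46G5A.29 (249 nt), nhr-61 and W01D2.1 (217 nt), tig-3 and Y46E12BL.2 (203 nt, the last interval of the arm), and btb-14 and sre-42 (119 nt). Neighbouring intervals were far apart, with a median gap of 14274 nt on the left (10660 to 17471) and 15742 nt on the right (11929 to 19447), against 8159.5 nt in the centre (6657 to 9592). Of the gaps under 200 nt, 1 in each arm lay between genes that face each other, unc-85 and F10G7.9 (36 nt) and cnp-2 and the ESCRT-III gene vps-2 (40 nt). The convergent genes vab-1 and ipla-1 left 369 nt between their intervals.

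Intervals in coding exons that met no annotated 3′ end by the naming rules numbered 20 in each arm. They were 9.71% of the left (6.03 to 14.6) and 15.2% of the right (9.51 to 22.4), against 15.7% in the centre (12.5 to 19.2). Along their whole length 5 of the 20 were coding on the left and 10 of 20 on the right. Their genomic distance to the stop codon ran from 35 to 8765 nt on the left, with a median of 1108.5 nt over the 18 intervals with a stop codon ahead, and from 13 to 13670 nt on the right, with a median of 1626 nt. The nearest were those of gldi-11 (35 nt) on the left and hhat-1 (13 nt) and citk-1 (31 nt) on the right, chosen after their values were seen. On the left cct-3 held 2, at 6986 and 8765 nt from the stop codon, and each of the other 18 genes held 1. On the right Y38F1A.1, mltn-9, nep-17, a neprilysin family gene, and xrn-1, the cytoplasmic 5′ to 3′ exonuclease gene, held 2 each. Those of xrn-1 lay 5361 and 13670 nt before the stop codon. The last interval of the left arm was a coding one, of rnh-1.0, a ribonuclease H gene, 101 nt from the stop codon. In 10 of 20 on the left and 8 of 20 on the right the gene also had a 3′ interval. The left arm intervals of K09F6.11 and nspd-5 had no annotated stop codon ahead, so they may run past it. Of their length 59 of 216 nt and 96 of 181 nt were coding.

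The remaining 22 intervals of the arms lay elsewhere. Annotated pseudogenes held 7 on the left (C24H12.9, C24H12.2, T04B8.2, F45D11.1, ZC204.11, F36H5.2 and F39E9.28) and 2 on the right (Y57A10A.1 and Y57A10A.3), and the long non-coding RNA gene linc-11 held 1. Introns or other untranslated parts of protein-coding genes held 4 in each arm. On the left 1 interval began 70 nt past T16A1.5, and 3 lay in no annotated gene, of which the longest had 480 nt (II, 2128646 to 2129125).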

How the data were processed

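The authors deposited an interval list of 4818 rows and 6 columns, with start and end in nt. Its deposited score column holds 0 in each row and its strand column a plus sign, so both were left unused. The sources used here do not name an assembler, aligner, filter or build. The list was free of overlaps. Depth per sample is unknown.

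Intervals were matched to the Ensembl annotation of WBcel235 with Python 3.11.15, numpy 2.4.6 and scipy 1.17.1. For the offset of each 1 Mb window, shifts within 3000 nt were tried. The best shift was the one at which most intervals began 20 to 45 nt before the last base of a stop codon. It was refined by the median edge to stop codon distances under 120 nt on both strands, with at least 3 intervals per strand. The offset served only to find genes. An interval was given to a gene if the overlap with the gene's 3′ UTR, stop codon included, reached 10 nt, or if the interval began no more than 60 nt upstream of the stop codon's last base. Among several such genes, the only one meeting the second rule was taken, otherwise none. Ends at most 20 nt apart were joined. In 881 intervals simulated on annotated genes of chromosome II, offsets were recovered within 2 nt and 98.1% were named right, none wrong. Each simulated interval began within the 60 nt of the second rule, with a single offset per window. The simulation therefore could not test the naming of intervals that begin elsewhere. Families were defined by gene symbol, 22 in number, of which 15 had a gene in the left arm and 17 in the right. Members and lists were chosen with earlier results of these data known. Genes named are, per arm, the 5 longest and 5 shortest after the stop codon, the 5 farthest upstream and downstream ends, every gene with more than 1 end, the longest intervals over 2 genes, up to 3 genes with most coding intervals, the arm's outer intervals, and the longest and shortest member of each family. The rankings of lengths and of ends used only intervals with a start near the stop codon. Other genes were chosen after their values were seen.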

Additional observations from a re-analysis of the deposited data

How the results depend on the processing

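Of 120 values recomputed under 16 alternative settings, 111 stayed within the 95% interval of the value reported. Without correction of the numbering, 62.9% of right arm intervals were given to 1 gene, 26.5% were coding, and 0 of 8 remaining ends (0%) lay within 20 nt of an annotated end. Left arm values stayed within their intervals. With a distance of 50 nt, 72.9% of left arm and 75.6% of right arm ends met an annotated end. Naming by a stop codon near the edge alone left 0 genes with more than 1 end in either arm. Counting only intervals of at least 120 nt gave medians of 182.5 nt on the left and 195.5 nt on the right, which follows from removing the shortest. Requiring an overlap of 50 nt lowered the share over both strands to 2.43% on the left and 4.55% on the right, inside their intervals. Windows of 0.5 or 2 Mb, an overlap of 1 nt, other edges, and borders moved by 1 Mb gave values within the intervals, as did, chosen after seeing the data, leaving out F-box, MATH and BTB genes or the last window. The planned count of poly(A) signals and a stricter score threshold were not run, as no genome sequence was used and each score is 0. No paired analysis was possible because there is 1 interval list. Unknown depth and the unknown set of primers limit each share of genes.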

Other observations

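A short stretch of the left arm held 5 intervals within a few kb (II, 3450947 to 3454677). They belonged to C16C8.14, gldi-6, C16C8.12 and C16C8.11, the last with a 3′ interval and a coding one. The 4 intervals at 3′ ends measured 111, 113, 112 and 116 nt, and the coding one 190 nt. The median gap between neighbours of the left arm was 14274 nt. These genes were chosen after their values were seen.

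Of the nematode-specific peptide genes, 4 with an interval are given as values only, chosen after their values were seen and with no count of the family. nspb-9 and nspb-10 in the right arm had 82 and 77 nt after the stop codon and ended 5 nt after and 1 nt before the annotated end. nspd-4 in the left arm had 86 nt after a stop codon at which its model ends. The coding interval of nspd-5 measured 181 nt, of which 96 nt were coding, and had no annotated stop codon ahead.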
